A study of Mus musculus with 8 samples.

Results

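The genes described here are 34 members of the unfolded protein response and the integrated stress response, out of 19938 genes measured on 8 microarrays. They were chosen by name, as were the further lists below, with earlier results of these data known. A share of members or of a list set beside all genes is therefore descriptive only. Each member is read by its probe set of highest mean level. The first 17, called the ATF4 arm below, comprise the transcription factor gene Atf4, related stress factors and genes of amino acid supply. The other 17, called the ER arm, encode folding and degradation proteins of the endoplasmic reticulum (ER) with their regulator Xbp1. All cells came from 1 mouse clone, MaF pre-iPSC9P2, that is, pre-iPSCs, which have started but not completed reprogramming to induced pluripotent stem cells. A feeder layer and mESC medium (the medium of mouse embryonic stem cells) supported them without vitamin C (4 arrays) or with vitamin C at 50 µg/ml from day 2 onwards (4 arrays). Each treatment has 1 array on each of days 3, 4, 5 and 6, so a difference on a single day has no replicate. After trypsin, feeder cells were removed and total RNA was taken with Trizol. Results from 1 clone cannot be told apart from what is particular to that clone.

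Cells slow translation through phosphorylation of the initiation factor eIF2 when amino acids run short, when unfolded proteins collect in the ER, or on other stresses. Translation of Atf4 mRNA then rises, and the ATF4 protein switches on genes of amino acid synthesis, transport and tRNA charging, together with Ddit3 (CHOP) and Trib3 under stronger stress. The unfolded protein response proper runs through the sensors PERK, IRE1 and ATF6: IRE1 splices Xbp1 mRNA, and XBP1 and ATF6 raise ER chaperones and degradation factors. Gene-level array values do not show splicing of Xbp1, translation of Atf4 or phosphorylation of eIF2.

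Promoter letters played no part in the rule that chose the genes, although some members are textbook carriers of these elements. Sequences of the 250 bases before the start site were taken from RefSeq (GRCm38.p6) for 31 of the 34 members, of which 2 have 2 start sites. The ER stress response element (ERSE), spelled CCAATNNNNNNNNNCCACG on either strand, lies in 7 of 15 ER arm genes and in 0 of 16 ATF4 arm genes, against 0.113% of 32851 promoters of the same length. The C/EBP-ATF element TGATGNAA lies in 5 of 16 ATF4 arm genes and in 1 of 15 ER arm genes (Herpud1), against 3.45% of all promoters. ERSE-II, spelled ATTGGNCCACG, was found in Herpud1 alone among the members and in 0.0304% of all promoters. The UPR element core TGACGTG was found in Hspa5 alone among them and in 1.65% of all promoters. A match describes these letters in this window and no binding was measured. The ERSE matches of 5 ER arm genes are shown so that their flanking letters can be compared, 5′ to 3′ on the gene's strand with the element in capitals (the reverse complement for Hsp90b1 and Creld2).
Hspa5 (chr2:34772010-34772058, plus strand): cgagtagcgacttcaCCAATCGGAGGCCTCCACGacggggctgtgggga
Dnajc3 (chr14:118937812-118937860, plus strand): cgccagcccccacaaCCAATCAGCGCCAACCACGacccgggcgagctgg
Pdia6 (chr12:17266476-17266524, plus strand): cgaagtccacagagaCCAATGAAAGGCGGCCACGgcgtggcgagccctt
Hsp90b1 (chr10:86705518-86705566, minus strand): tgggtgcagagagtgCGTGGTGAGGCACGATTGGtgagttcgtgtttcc
Creld2 (chr15:88819505-88819553, plus strand): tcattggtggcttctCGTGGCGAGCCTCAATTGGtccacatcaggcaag

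Hsp90b1 holds a second ERSE, and Calr and Syvn1 are the remaining genes with one. The C/EBP-ATF matches are shown for all 5 ATF4 arm genes. Of these, Atf3, Nupr1 and Vldlr are among the genes called below as changing with time, while Asns and Chac1 are not. Ddit3 and Mthfd2 were called without a match. A part of the element in the changes with time was not tested. Capitals again mark the element, as its reverse complement in each gene but Asns.
Asns (chr6:7693210-7693247, minus strand): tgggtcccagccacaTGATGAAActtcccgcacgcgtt
Atf3 (chr1:191183421-191183458, minus strand): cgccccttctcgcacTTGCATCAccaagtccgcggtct
Chac1 (chr2:119351034-119351071, plus strand): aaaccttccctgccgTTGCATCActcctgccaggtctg
Nupr1 (chr7:126625558-126625595, minus strand): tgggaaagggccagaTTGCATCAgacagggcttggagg
Vldlr (chr19:27216805-27216842, plus strand): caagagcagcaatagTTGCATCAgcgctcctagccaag

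Values are the authors' RMA values on a log2 scale, so a difference of 1 is a doubling. Arrays correlated with each other at 0.977 to 0.994, and their medians lay between 4.33 and 4.40. Pou5f1 had a mean level of 12.1 and was the brightest of 12 pluripotency markers, whose mean over the list ran from 6.22 to 6.81 in the untreated and from 6.70 to 7.93 in the vitamin C arrays, while Fut4 was the dimmest at 3.22. The mean of 24 fibroblast or feeder markers lay between 6.64 and 7.57 in the untreated arrays and between 6.54 and 7.08 with vitamin C, with Lum dimmest at 3.93 and Fn1 brightest at 10.98, so RNA of such markers was present on every array. This list fell with day in both treatments, as given beside the results it touches. In a mixed sample, fewer cells of a type and less RNA per cell cannot be told apart. The labels leave unstated whether each day was a culture of its own. The p-values therefore describe spread among 8 arrays, possibly technical, and so few arrays limit precision.

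Levels are given first. Hsp90b1 (GRP94), an ER chaperone of the HSP90 family, had a mean of 10.2 over the 8 arrays, the disulfide isomerase gene Pdia3 of 9.55, the calcium-binding chaperone gene Calr of 9.41, and Hspa5 (BiP), the main ER chaperone and stress sensor partner, of 9.27. In the ATF4 arm, Asns (asparagine synthetase) had a mean of 9.54, whereas Atf4 itself had 6.23, Ddit3 5.46 and Chac1, a glutathione-degrading enzyme, 4.93. Probe sets of different genes do not share a scale, so these means are only a guide.

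The first question was whether vitamin C shifted these genes when all 4 days were considered. No member passed the test: in limma (Benjamini-Hochberg over all genes, threshold 0.05) 0 of 34 were called, against 0.537% of all genes called higher and 0.216% called lower. At an unadjusted p under 0.05, 1 of 34 was higher (6.18% of all genes) and 3 of 34, or 8.82%, were lower (6.52% of all genes). The median difference was -0.07 for the ATF4 arm, 0.003 for the ER arm and -0.01 for all genes. Regardless of sign, the daily difference averaged 0.202 over the members and 0.245 over all genes. The members were brighter, with a median level of 7.20 against 4.70 for all genes, and no set matched for level was compared. Differences on all 4 days were below 0 in 5 of 34 members (14.7%, against 11.1% of all genes) and above 0 in 2 (5.88%, against 9.29%).

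In the ATF4 arm 11 of 17 differences were below 0, 6 of them among the synthesis genes, and none passed. Of the 7 genes of amino acid and one-carbon synthesis, 6 had a difference below 0 (51.8% of all genes), with a median of -0.21, and 3 (Asns, Psat1 and Aldh18a1) were lower with vitamin C on each day. Aldh18a1, which makes the proline precursor pyrroline-5-carboxylate, measured 7.94, 7.93, 7.74 and 7.40 on days 3 to 6 without vitamin C. With vitamin C it measured 7.71, 7.49, 7.22 and 7.07. Each vitamin C array lay below the untreated array of its day, while the groups as a whole overlapped. The difference was -0.38 ± 0.11 (moderated SE), the smallest p of all members, and did not pass (adjusted p = 0.159 in limma, lower on 4 of 4 days). Asns, which makes asparagine, measured 9.90, 9.80, 9.54 and 9.48 without and 9.70, 9.44, 9.26 and 9.24 with vitamin C. It too was lower on every day and overlapped over days, with -0.27 ± 0.10 (adjusted p = 0.302). Its daily differences were close to each other, with an SD of 0.07.

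The serine pathway was less even. Psat1, its transaminase, measured 7.52, 7.57, 7.44 and 6.77 without and 7.40, 7.23, 7.19 and 6.67 with vitamin C, a difference of -0.21 ± 0.10 (adjusted p = 0.475 in limma). Phgdh, the first enzyme, differed by -0.21 ± 0.12 and Psph, the phosphatase at its end, by -0.01 ± 0.11. Shmt2 and Mthfd2, which pass serine carbon into mitochondrial folate metabolism, differed by 0.04 ± 0.10 and -0.07 ± 0.10. Fibroblast or feeder markers were lower in the same comparison, with 23 of 24 below 0 and a median of -0.37. Of these, 2 of 24 were called lower (8.33%, against 0.216% of all genes). Pluripotency markers had a median of 0.60, and 3 of 12 were called higher (25.0%, against 0.537% of all genes). The part of either marker list in the differences of the synthesis genes was not tested.

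The stress factors of the ATF4 arm showed no common direction. Atf4 measured 6.29, 6.14, 6.22 and 6.00 without and 6.45, 6.11, 6.35 and 6.25 with vitamin C. The groups overlapped and the difference was 0.13, with a 95% interval from -0.11 to 0.36. Ddit3, which encodes the stress factor CHOP, measured 5.39, 5.46, 5.64 and 5.67 without and 4.79, 5.29, 5.82 and 5.62 with vitamin C. It was lowest in the vitamin C array of day 3, and the difference over days was -0.16 (95% interval -0.47 to 0.15). It was -0.02 without day 3 and -0.27 without day 5. Atf3, a stress-induced repressor, differed by -0.03, the C/EBP factor gene Cebpb by 0.11 and Nupr1, a small chromatin-associated stress protein, by 0.22, none of which passed.

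Of the other stress genes in that arm, Vldlr had the widest difference. This lipoprotein receptor gene measured 5.02, 5.39, 5.34 and 5.66 without and 4.44, 4.67, 5.14 and 5.71 with vitamin C. It was lower with vitamin C on days 3 to 5 and level with the untreated array on day 6, which gave -0.36 ± 0.14 (adjusted p = 0.324 in limma). Sesn2, a leucine-sensing inhibitor of mTORC1, was lower with vitamin C without overlap (7.02, 6.98, 7.02 and 6.85 against 7.03, 7.11, 7.23 and 7.04), by 0.14 in the mean. Eif4ebp1, which encodes the translation repressor 4E-BP1, was higher without overlap (7.25, 7.23, 7.31 and 7.27 against 7.16, 7.19, 7.19 and 7.15), by 0.09. With Hsp90b1, 2 of 34 members lay wholly below and 1 wholly above the untreated arrays, against 2.61% and 2.1% of all genes, and none of the 3 passed limma. The pseudokinase gene Trib3, which restrains ATF4, differed by -0.10 and Chac1 by 0.04.

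**Figure D1:**
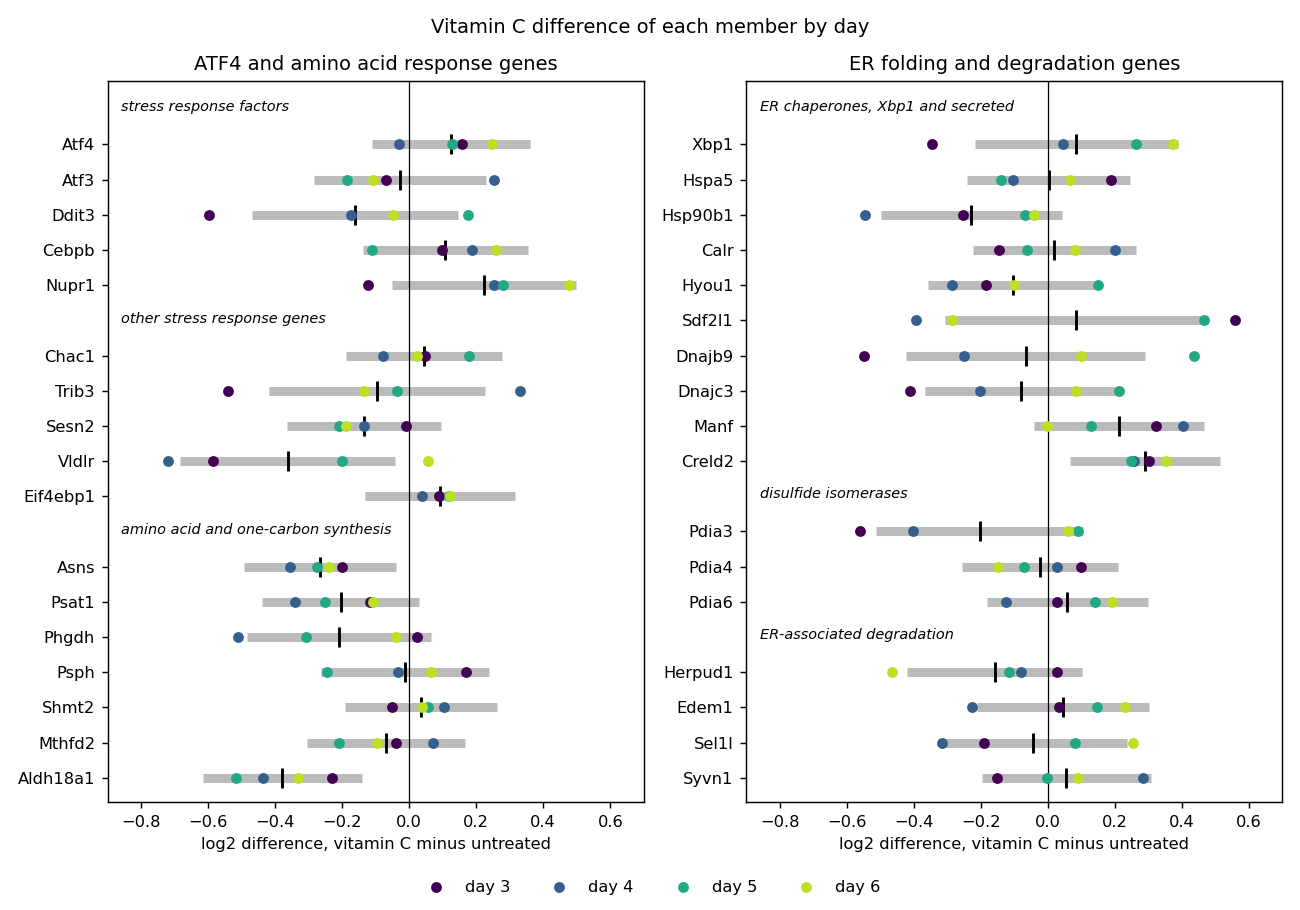
Log2 difference between vitamin C and untreated arrays for each of the 34 members, with 1 point per day, a black tick at the mean over days and a grey bar for its 95% interval from limma. Most bars include 0, those of Aldh18a1, Asns and Vldlr lie below it and that of Creld2 above it, and no member passed after adjustment.

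In the ER arm, 9 of 17 differences were above 0 (48.2% of all genes) and 8 below. Creld2, a secreted or ER-resident protein released under ER stress, was the 1 of 17 ER arm genes that was higher with vitamin C on all 4 days. It measured 7.38, 7.29, 7.20 and 6.94 without and 7.69, 7.54, 7.44 and 7.29 with vitamin C. Each vitamin C array lay above the untreated array of its day, although the groups overlapped over days. The difference was 0.29 ± 0.10 (adjusted p = 0.254 in limma, higher on 4 of 4 days, SD of the daily differences 0.05). Manf, an ER stress-induced secreted factor, measured 6.17, 6.36, 6.31 and 6.27 without and 6.50, 6.77, 6.44 and 6.27 with vitamin C. It stood highest with vitamin C on day 4 and was level on day 6, with a difference of 0.21 ± 0.11 (adjusted p = 0.494).

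Among chaperones, Hspa5 measured 9.36, 9.24, 9.26 and 9.22 without and 9.55, 9.14, 9.12 and 9.29 with vitamin C. The difference was 0.003 and its 95% interval ran from -0.24 to 0.25. Hsp90b1 measured 10.35, 10.46, 10.27 and 10.29 without and 10.10, 9.91, 10.20 and 10.25 with vitamin C. Every vitamin C array lay below every untreated one, with a difference of -0.23 ± 0.12 (adjusted p = 0.491), which was -0.12 without day 4. Calr differed by 0.02, the HSP110-type chaperone gene Hyou1 by -0.11, and the BiP partner genes Dnajb9, Dnajc3 and Sdf2l1 by -0.07, -0.08 and 0.09.

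Pdia3, the isomerase that works with calreticulin, differed by -0.20 ± 0.14 (-0.09 without day 3), Pdia4 by -0.02 and Pdia6 by 0.06. Pdia4 measured 8.43, 8.57, 8.41 and 8.31 without and 8.53, 8.60, 8.34 and 8.17 with vitamin C, so that the groups overlapped. Of the degradation genes, Herpud1, which organises the retrotranslocation complex, differed by -0.16, the mannosidase-like gene Edem1 by 0.05, the adaptor gene Sel1l by -0.04 and the ubiquitin ligase gene Syvn1 by 0.06. Syvn1 was highest on day 3 without vitamin C and on day 4 with it (6.51, 6.21, 6.17 and 6.05 against 6.35, 6.49, 6.17 and 6.14). ER arm genes with an ERSE had a median difference of 0.02 (7 genes), and those with a promoter sequence but no ERSE of -0.03 (8 genes).

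**Figure D2:**
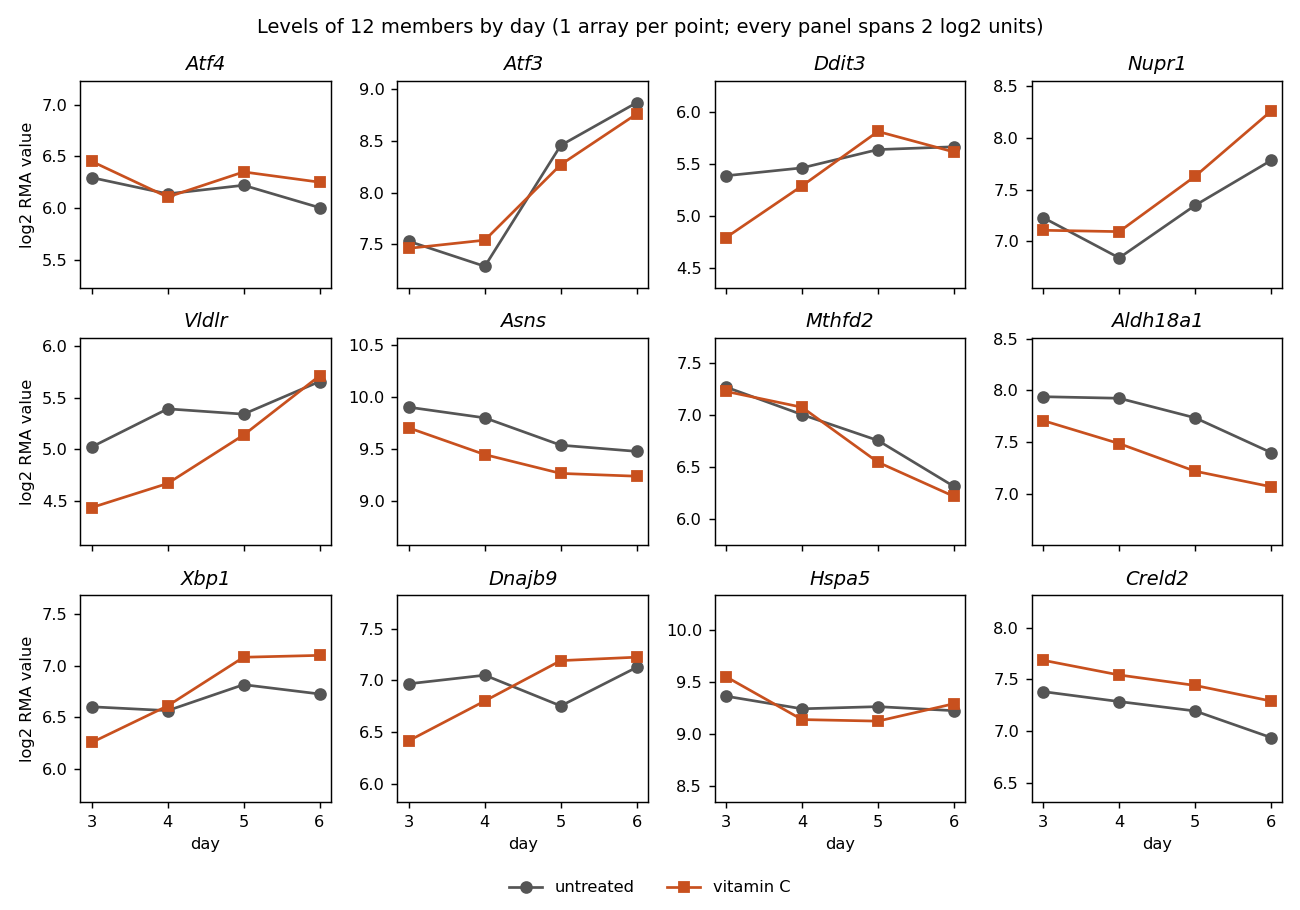
Log2 RMA value of 12 members on days 3 to 6, with 1 array per point, circles for untreated and squares for vitamin C, and 2 log2 units in every panel. Atf3 climbs and Mthfd2 falls in both treatments, Aldh18a1 and Asns run lower and Creld2 higher with vitamin C, and Xbp1 and Dnajb9 start below and end above the untreated arrays.

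Next came the question of a changing vitamin C difference between day 3 and day 6. In the ER arm the median difference was -0.15, -0.12, 0.13 and 0.08 on days 3 to 6, and 8, 6, 11 and 11 of 17 genes were higher with vitamin C. The ATF4 arm had medians of -0.05, -0.03, -0.19 and -0.04, and all genes of 0.02, 0.002, -0.02 and -0.03. No member passed limma in this test of the change of the difference per day (0 of 34, against 0.0652% of all genes rising and 0% falling). At an unadjusted p under 0.05, 4 of 34 were above 0 (5.52% of all genes) and 0 below (5.74% of all genes).

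The change of the difference was above 0 in 23 of 34 members (44.9% of all genes) and below 0 in 11 (55.1%). The 4 with an unadjusted p under 0.05 were Xbp1, Dnajb9, Pdia3 and Vldlr. Xbp1, the transcription factor spliced by IRE1, measured 6.60, 6.57, 6.82 and 6.73 without and 6.26, 6.61, 7.08 and 7.10 with vitamin C. It was lower with vitamin C on day 3 by 0.35 and higher on day 6 by 0.37, and the difference grew by 0.24 ± 0.09 per day (adjusted p = 0.377 in limma). Its difference over all days was 0.09 (95% interval -0.22 to 0.39), 0.23 without day 3 and -0.01 without day 6. Dnajb9 (ERdj4), a BiP cochaperone and a known XBP1 target, measured 6.97, 7.05, 6.75 and 7.13 without and 6.42, 6.80, 7.19 and 7.22 with vitamin C. It crossed in the same way, from -0.55 on day 3 to 0.10 on day 6, and grew by 0.26 ± 0.10 per day (adjusted p = 0.376). In the ER arm the change was above 0 in 12 of 17 genes and below 0 in 5. Those 5 were Sdf2l1 (-0.168), Herpud1 (-0.151), Manf (-0.125), Pdia4 (-0.084) and Hspa5 (-0.04).

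Pdia3 measured 9.83, 9.89, 9.45 and 9.45 without and 9.26, 9.49, 9.54 and 9.51 with vitamin C. The untreated arrays of days 3 and 4 stood above the other 6, and the difference grew by 0.24 ± 0.09 per day (adjusted p = 0.377 in limma). Dnajc3 (p58IPK), an ER cochaperone that also restrains eIF2 kinases, measured 8.10, 7.85, 7.70 and 7.83 without and 7.69, 7.65, 7.91 and 7.91 with vitamin C, a change of 0.19 ± 0.09 per day (adjusted p = 0.468), or 0.11 without the untreated array of day 3 and 0.30 without that of day 6. Its 2 probe sets hold the same values on every array. For Hspa5 the change was -0.04 ± 0.10 per day, for Atf4 0.04 ± 0.10 and for Asns -0.004 ± 0.08. In the ATF4 arm the difference of Vldlr grew by 0.24 ± 0.09 (adjusted p = 0.360), that of Ddit3 by 0.20 ± 0.11 (0.06 and 0.41 without the vitamin C array of day 3 or 6) and that of Nupr1 by 0.18 ± 0.14, the last of which turned to -0.07 without the untreated array of day 3. Fibroblast or feeder markers also moved upwards in this comparison, with a median of 0.17 per day, 18 of 24 above 0 and 0 of 24 called, and their part in these changes was not tested.

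**Figure D3:**
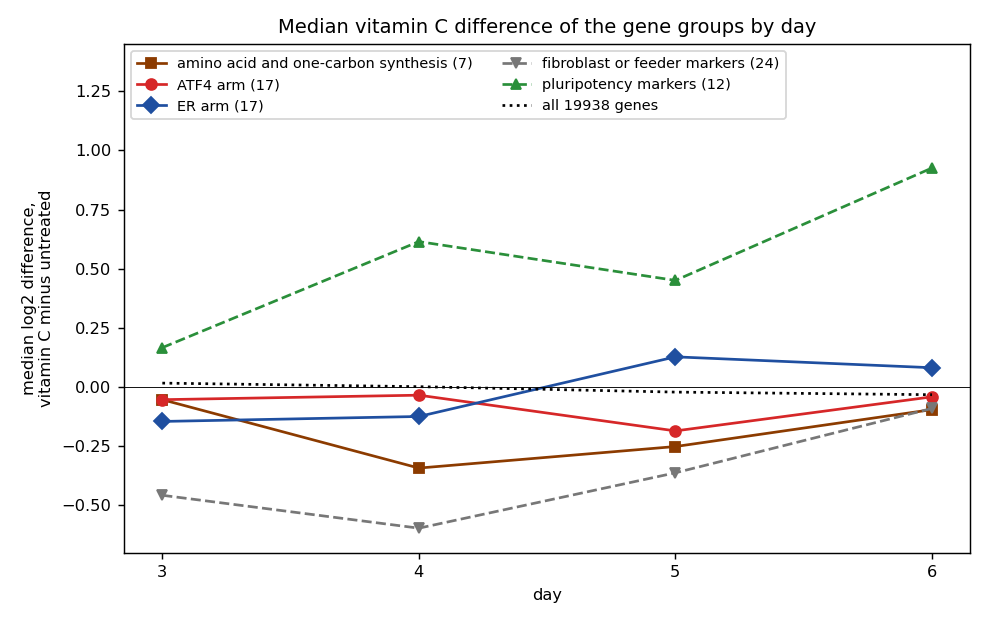
Median log2 difference between vitamin C and untreated arrays by day for the 2 arms, the 7 synthesis genes, 24 fibroblast or feeder markers, 12 pluripotency markers and all 19938 genes. The ER arm runs from -0.15 on day 3 to 0.08 on day 6, the ATF4 arm stays below 0, and the fibroblast or feeder markers move from -0.46 to -0.09.

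The third question was how the genes changed with time in each treatment. Without vitamin C, Atf3 rose and Mthfd2 fell, 2 of 34 members, against 0.782% of all genes rising and 0.968% falling. At an unadjusted p under 0.05, 3 members were above 0 (8.82%, against 8.39% of all genes) and 9 below (26.5%, against 8.66%). With vitamin C, 6 of 34 rose (17.6%, against 5.25% of all genes) and 1 fell (2.94%, against 3.39%). The 6 were Atf3, Ddit3, Nupr1, Vldlr, Xbp1 and Dnajb9, and Mthfd2 was the 1 that fell. Atf3 thus rose in both treatments, as did 0.592% of all genes, and Mthfd2 fell in both, as did 0.376%. At an unadjusted p under 0.05, 6 members were above 0 with vitamin C (17.6%, against 11.4% of all genes) and 8 below (23.5%, against 13.4%). Slopes were above 0 in 11 of 34 members without vitamin C (51.6% of all genes) and in 15 with it (42.9%). Pluripotency markers rose with day, 3 of 12 called without (25.0%, against 0.782% of all genes) and 8 with vitamin C (66.7%, against 5.25%). Their part in the members' slopes was not tested. With array medians set equal, 5 members rose and 2 fell, since Dnajb9 no longer passed and Aldh18a1 did. Under that scaling the split of all genes with vitamin C went from 1046 up and 676 down to 942 and 930. After another quantile normalization 6 rose and 2 fell.

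Atf3 showed the largest change of any member. It measured 7.53, 7.29, 8.46 and 8.87 on days 3 to 6 without and 7.46, 7.54, 8.27 and 8.76 with vitamin C. In each treatment days 5 and 6 stood above days 3 and 4, and the slopes were 0.52 ± 0.11 (adjusted p = 0.0389 in limma) and 0.46 ± 0.11 log2 per day (adjusted p = 0.0246). From day 3 to day 6 the gene rose by 1.34 without and by 1.30 with vitamin C. Nupr1 measured 7.23, 6.84, 7.35 and 7.78 without and 7.11, 7.09, 7.63 and 8.26 with vitamin C. Its slope passed with vitamin C (0.40 ± 0.10, adjusted p = 0.0313) and not without (0.22 ± 0.10, adjusted p = 0.290). Ddit3 likewise had slopes of 0.30 ± 0.08 with (adjusted p = 0.0393) and 0.10 ± 0.08 without vitamin C (adjusted p = 0.558). As given above, the difference between the slopes did not pass for any member.

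Vldlr rose by 0.43 ± 0.07 per day with vitamin C (adjusted p = 0.00401 in limma), from its lowest values of all 8 arrays on days 3 and 4, and had 0.19 ± 0.07 without. Xbp1 rose by 0.30 ± 0.07 (adjusted p = 0.0209) and Dnajb9 by 0.28 ± 0.07 (adjusted p = 0.0392) with vitamin C, and their slopes without it were 0.06 ± 0.07 and 0.02 ± 0.07. The remaining 15 ER arm genes did not pass in either treatment, with Hspa5 at -0.04 and -0.08, Calr at -0.10 and -0.06 and Hsp90b1 at -0.04 and 0.08 per day. Which members passed changed with single arrays: with vitamin C, 1 member (Ddit3) passed without the vitamin C array of day 6, 3 (Mthfd2, Vldlr and Xbp1) without that of day 5, and 3 (Mthfd2, Trib3 and Vldlr) without that of day 3. Without vitamin C, 0 members passed when the untreated array of day 3, 5 or 6 or the vitamin C array of day 5 was left out, and Atf3 alone passed without the untreated array of day 4. Calls over all genes with vitamin C also went from 1722 to 270 without the vitamin C array of day 6. The slopes themselves kept their direction in all 15 alternatives for these 7 members, with a range from 0.35 to 0.52 for Vldlr, from -0.43 to -0.34 for Mthfd2 and from 0.40 to 0.61 for Atf3 with vitamin C. Vldlr and Mthfd2 each passed with vitamin C in 14 of 15 alternatives. The slope of Ddit3 was 0.16 without the vitamin C array of day 3 and 0.51 without that of day 6, that of Nupr1 was 0.26 without that of day 6, and that of Atf3 without vitamin C was 0.79 without the untreated array of day 3.

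Of the synthesis genes 1 of 7, Mthfd2, fell in each treatment. All 7 slopes were below 0 in each treatment (48.4% of all genes without and 57.1% with vitamin C), with medians of -0.17 and -0.17 log2 per day without and with vitamin C, and 6 of 7 had an unadjusted p under 0.05 in each (8.66% and 13.4% of all genes). Mthfd2, the mitochondrial methylene-tetrahydrofolate dehydrogenase, measured 7.27, 7.01, 6.76 and 6.31 without vitamin C and 7.23, 7.08, 6.55 and 6.22 with it. It was lower on each following day in each treatment, with slopes of -0.31 ± 0.06 (adjusted p = 0.0328 in limma) and -0.36 ± 0.06 (adjusted p = 0.00686). Aldh18a1 had -0.18 ± 0.06 (-0.10 without the untreated array of day 6) and -0.22 ± 0.06, the latter just short of the threshold (adjusted p = 0.0501). Psat1 had -0.24 and -0.23, Phgdh -0.17 and -0.17, Shmt2 -0.17 and -0.15, Asns -0.16 and -0.16, and Psph, which missed an unadjusted p of 0.05, -0.06 and -0.11.

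The count of 6 without vitamin C was 3 when the untreated array of day 3 was left out and 1 without that of day 6, and the 6 with vitamin C became 2 without the vitamin C array of day 3. Fibroblast or feeder markers were lower with time as well: 23 of 24 slopes were below 0 without vitamin C and 22 with it, with medians of -0.34 and -0.20. As falling, 9 were called without vitamin C (37.5%, against 0.968% of all genes) and 6 with it (25.0%, against 3.39%). Their part in the slopes of the synthesis genes was not tested. Trib3 also had slopes below 0, -0.30 ± 0.08 without and -0.22 ± 0.08 with vitamin C, on arrays that ran 6.44, 5.88, 5.77 and 5.48 and 5.90, 6.22, 5.73 and 5.34. It did not pass with all arrays (adjusted p = 0.107 and 0.140). Atf4 had -0.08 and -0.04, Cebpb -0.08 and -0.07 and Sesn2 0.02 and -0.05 per day.

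**Figure D4:**
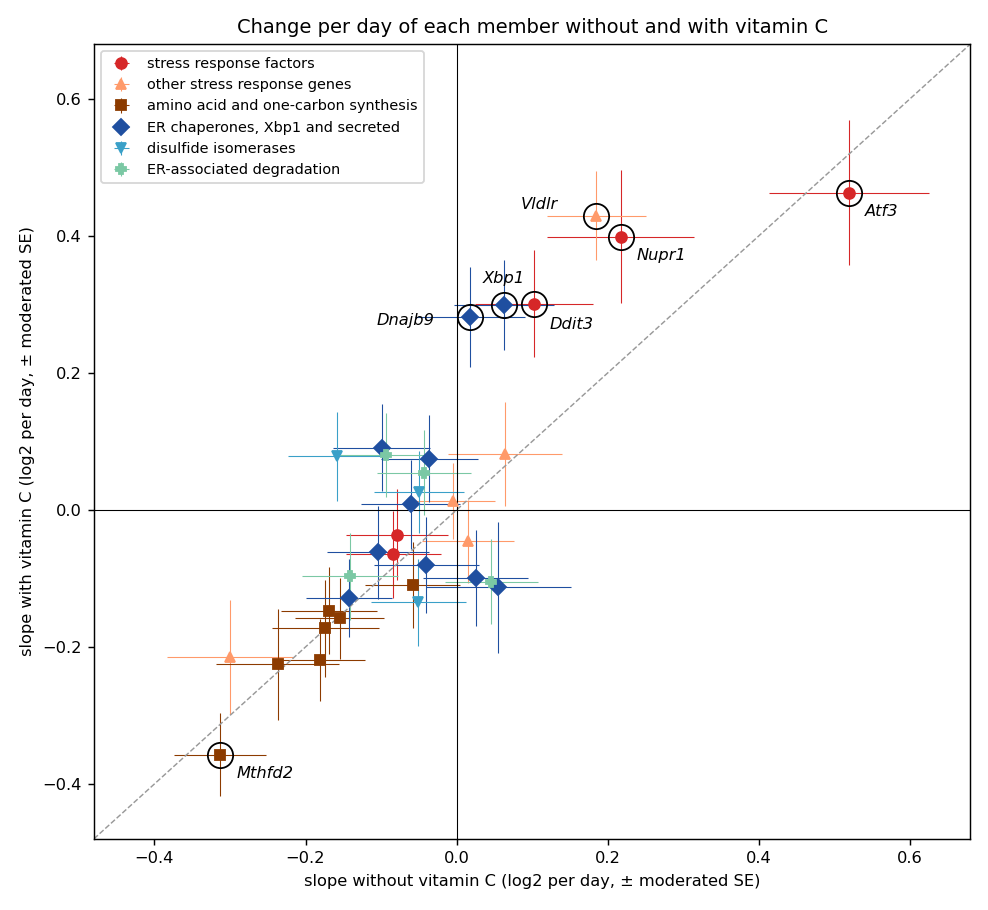
Slope on day without vitamin C (horizontal) against slope with vitamin C (vertical) for the 34 members, in log2 per day with moderated SE, marked by role; rings show the 7 members that passed in at least 1 treatment and the dashed line marks equal slopes. Atf3 lies at the upper right and the synthesis genes at the lower left near the line, and Vldlr, Nupr1, Ddit3, Xbp1 and Dnajb9 lie above it.

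Upstream of these genes stand the stress sensors, kinases and phosphatase subunits, of which 13 of 15 were measured. In limma 0 of 13 passed for the vitamin C effect, with 1 lower at an unadjusted p under 0.05 (7.69%, against 6.52% of all genes). For its change with day 0 of 13 passed, with 2 above 0 unadjusted (15.4%, against 5.52% of all genes). Atf5, an ATF4-related factor, differed by -0.31 (adjusted p = 0.345), Atf6b by 0.16 and the haem-regulated eIF2 kinase gene Eif2ak1 by -0.15. The kinase gene Eif2ak2 (PKR), which interferon also induces, had the largest change of the difference, 0.55 ± 0.12 per day (adjusted p = 0.144), and the sensor gene Atf6 had 0.18 ± 0.08. With time 1 of 13 rose with vitamin C (7.69%, against 5.25% of all genes). This was Ppp1r15a (GADD34), the stress-induced eIF2 phosphatase subunit, by 0.29 ± 0.06 per day (adjusted p = 0.0202 in limma). Its slope without vitamin C was 0.195 ± 0.06 (adjusted p = 0.163), and 0 of 13 passed there. Ppp1r15a is named after its value was seen.

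ATF4 is also known to raise tRNA synthetase genes and the tRNA exporter gene Xpot. Of 14 measured, 13 differed below 0 for vitamin C (51.8% of all genes), with a median of -0.07. In limma 0 were called and 0 had an unadjusted p under 0.05. Eprs differed by -0.19, Xpot by -0.14 and Vars by -0.13. Counts higher with vitamin C were 5, 3, 3 and 8 of 14 on days 3 to 6, with a median of 0.03 on day 6. For the change of the difference Cars had 0.23 and Tars 0.15 per day. Slopes were below 0 in 14 of 14 without (48.4% of all genes) and 11 of 14 with vitamin C (57.1%), with medians of -0.12 and -0.09 per day. At an unadjusted p under 0.05, 5 of 14 were below 0 in each treatment (8.66% of all genes without and 13.4% with vitamin C). The 1 called was Hars with vitamin C (7.14%, against 3.39% of all genes falling), at -0.24, named after its value was seen. Of 18 other ATF4 or CHOP targets, 0 passed for vitamin C. At an unadjusted p under 0.05, 2 were higher (11.1%, against 6.18% of all genes), Stc2 with 0.30 and Slc7a3 with 0.34. The 1 that was lower was Cth with -0.34 (5.56%, against 6.52% of all genes). The difference changed by 0.24 per day for the AP-1 family gene Jdp2 and by -0.23 for Cth, which did not pass. Without vitamin C, 1 of these 18 rose (5.56%, against 0.782% of all genes) and 2 fell (11.1%, against 0.968%). With vitamin C, 1 rose (5.56%, against 5.25%) and 4 fell (22.2%, against 3.39%). The mTORC1 inhibitor gene Ddit4 rose by 0.47 and 0.45 per day in the 2 treatments, while the cystine transporter gene Slc7a11 fell by 0.55 and 0.54 and the leucine transporter gene Slc7a5 by 0.31 and 0.33. Slc7a1, an arginine transporter gene, and Cth, the last enzyme of cysteine synthesis, fell with vitamin C alone past the threshold, by 0.40 and 0.35 per day, a difference between treatments that did not pass. Ddit4, Slc7a11, Slc7a5 and Slc7a1 are named after their values were seen.

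Other ER folding, translocation and degradation genes numbered 30 measured, of which 17 differed below 0. Of these 30, 0 passed in limma, 5 were lower and 0 higher at an unadjusted p under 0.05 (16.7%, against 6.52% of all genes lower), and 8 were lower on all 4 days (26.7%, against 11.1% of all genes). The largest difference belonged to the prolyl isomerase gene Fkbp14, a folding factor for collagen, with -0.54 ± 0.13 (adjusted p = 0.104), followed by the translocon subunit gene Ssr1 with -0.36 and the isomerase gene Pdia5 with -0.36, each beside the fibroblast or feeder markers with a median of -0.37. The part of those markers in these differences was not tested. Over time 2 of these 30 rose with vitamin C (6.67%, against 5.25% of all genes) and 0 fell (3.39% of all genes). Without vitamin C 0 of 30 passed. The ER oxidase gene Ero1a rose by 0.78 ± 0.10 per day with vitamin C (adjusted p = 0.00175), had 0.25 ± 0.10 without, and its difference grew by 0.53 ± 0.14 per day (adjusted p = 0.210). Ero1b, its relative, also rose with vitamin C (0.27, named after its value was seen), and Sec11c, a signal peptidase subunit gene, had a change of the difference of 0.40 per day (adjusted p = 0.289).

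Chaperones of other compartments served for comparison. Of 9 cytosolic heat shock genes 7 differed above 0, with a median of 0.05, Hspa1a by 0.23, Dnajb1 by 0.22 and Hspb1 by 0.20. In limma 0 were called, and 1 was higher at an unadjusted p under 0.05 (11.1%, against 6.18% of all genes). With vitamin C, 2 of 9 rose with time (22.2%, against 5.25% of all genes), Hspb1 by 0.31 and the cochaperone gene Bag3 by 0.29 per day. Without vitamin C 0 of 9 passed, with slopes of 0.25 for Hspb1 (adjusted p = 0.082 in limma) and 0.05 for Bag3. The difference changed by 0.23 per day for Bag3 and by 0.11 for Hsp90aa1, neither of which passed. Of 11 mitochondrial chaperone and protease genes 0 passed for vitamin C (0 unadjusted), with a median of -0.09, Dnaja3 at -0.17, Hspd1 at -0.17 and Clpp at -0.12. Over time 3 of these 11 fell with vitamin C (27.3%, against 3.39% of all genes), Hspd1 by 0.28, Hspe1 by 0.33 and Htra2 by 0.32 per day. Hspe1 is named after its value was seen. Without vitamin C 0 of 11 passed, and the slopes of these 3 genes were -0.20, -0.23 and -0.09 per day. At an unadjusted p under 0.05, 5 of 11 were below 0 in each treatment (8.66% of all genes without and 13.4% with vitamin C). The difference changed by -0.23 per day for the protease gene Htra2 and by 0.11 for Afg3l2, neither of which passed.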

How the data were processed

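Expression was measured on 8 Affymetrix whole-transcript arrays, 4 per treatment. The deposited log2 values come from the authors; the submitters' processing notes name RMA and Partek. Versions, options and genome build: not given in the sources used here. Values ran from 0.765 to 13.8, above the natural log (11.1) and below the log2 (16.0) of the largest 16-bit reading. Of 28853 probe sets 21789 had 1 gene symbol, 1621 had several and 5443 were unlisted. The probe set with the highest mean stood for each of 19938 genes. Whether probes also read pseudogene copies was not tested.

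Tests were limma 3.58.1 in R 4.3.3, two-sided, Benjamini-Hochberg over 19938 genes, threshold 0.05. The vitamin C effect had day as a factor (3 residual and 6.03 prior degrees of freedom). The interaction and slopes came from a slope on day per treatment (4 and 6.43). Day paired the arrays because the labels give it; deviations of the 2 arrays of a day correlated at 0.125 to 0.475. Scripts were tested on simulated data.

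All 34 members were described, with values on every array for the 4 smallest p per arm and comparison and for Atf4, Ddit3, Asns, Xbp1 and Hspa5 (the arrays of Sesn2 and Eif4ebp1 were added after values were seen). Up to 3 genes per further list were named for the vitamin C effect and 2 for its change with day. Members and lists were chosen with earlier results of these data known. Protein sequences were not used here. Motifs were searched with Python 3.11.15 (pandas 2.3.3), and plots made with matplotlib 3.10.9.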

Additional observations from a re-analysis of the deposited data

Results flagged for a closer look

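In 2 of 68 groups of 4 arrays (34 members, 2 treatments) 1 array stood apart from the other 3 by a gap above Dixon's critical share of the group's range. Chance flags about 1 in 20 groups, and days of a time course are not interchangeable. Psat1 was lowest on day 6 without vitamin C, at 6.77, with the other untreated arrays between 7.44 and 7.57. Phgdh was highest on day 3 with vitamin C, at 7.49, with the other vitamin C arrays between 6.91 and 6.96.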

How the results depend on the processing

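For the vitamin C effect, 0 members passed in any of 13 alternatives. The alternatives were a further quantile normalization, equal array medians, a filter removing the dimmest 25% of genes, other uses of probe sets, trend and robust options, a threshold of 0.1, other uses of day, and leaving out each day. This includes the fit with no replicate block (0 members, day left out), and the arm medians ranged from -0.12 to -0.02 (ATF4 arm) and from -0.02 to 0.03 (ER arm). For the change of the difference, 0 passed in 16 alternatives, the replicate block by day included (0 members). Slopes called 2 members without vitamin C, 1 after quantile normalization again, and 0 to 3 when single arrays were left out. With vitamin C the 7 members ranged from 1 to 6 when single arrays were left out and from 7 to 9 otherwise. The synthesis genes at an unadjusted p under 0.05 ranged from 1 to 6 without and from 2 to 6 with vitamin C. Over single members, 658 of 707 recomputed values kept direction and side of the threshold, 33 lost and 3 gained a call, and 13 turned direction, none of them called. For the vitamin C effect these were Hspa5 (-0.059 without day 3, -0.019 without day 6) and Xbp1 (-0.011 without day 6). For the change of the difference they were Nupr1, Trib3 and Asns without the untreated array of day 3 (-0.072, -0.011 and 0.004), Asns without that of day 6 (0.025), Trib3, Asns and Hspa5 without the vitamin C array of day 3 (-0.136, 0.05 and 0.116), and Asns without that of day 5 (0.006). For the slope with vitamin C they were Atf4 (0.072) and Hspa5 (0.076) without the vitamin C array of day 3. Calls over all genes ranged from 3 to 384 against 150 for vitamin C, from 0 to 80 against 13 for its change, and from 8 to 782 against 349 and 270 to 2917 against 1722 for the slopes. The cause was not tested.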
